A study of Mus musculus with 36 samples.

Results

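Livers of W/F mice on a MASH diet were compared with livers of W/F mice on chow, with 4 RNA-seq libraries on each side, chosen by the genotype and treatment in the sample labels. These 8 libraries belong to a series of 36 that holds 9 groups of 4. Of 49315 genes listed, 16638 reached 1 TPM in at least 4 of the 36 libraries and were tested. TPM, transcripts per 1000000, is a level corrected for transcript length and library size. MASH is metabolic dysfunction-associated steatohepatitis, a fatty liver disease with inflammation and fibrosis. W/F mice are heterozygous for a CRISPR-made change of tryptophan to phenylalanine at residue 441 of LXRalpha, carried in their own gene, with no tissue-specific promoter or Cre named. W/W mice are the homozygous controls and F/F mice carry the change on both alleles. All were males of 11 to 12 weeks. The MASH group ate the Teklad diet for 4 weeks and received vehicle by daily oral gavage in the last 2 of them. The chow group was an independent cohort, for which no gavage is described, so diet, gavage and cohort cannot be told apart in any value given here.

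LXRalpha is a nuclear receptor that senses oxysterols and acts on DNA together with RXR. In hepatocytes it raises sterol efflux, biliary sterol excretion and fatty acid synthesis, and in macrophages it drives cholesterol export. Cholesterol-laden liver normally switches off its own sterol synthesis through SREBP2, and in steatohepatitis the liver gains monocyte-derived macrophages that handle lipid and scar-forming cells that arise from stellate cells.

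The 2 groups differed in the make-up of their libraries as well as in single genes. Read totals recovered from the TPM values were 20.7 to 21.8 M (M, 1000000 reads) in the chow libraries and 23.45 to 34.5 M in the MASH libraries, without overlap. The 100 most abundant genes held 54.3% ± 1.08 of all TPM in chow and 46.9% ± 0.786 in MASH livers (SD, n = 4 each), and 12670.0 ± 94.9 and 14597.5 ± 278 genes were at 1 TPM or more. Neither measure overlapped between groups (exact permutation test, two-sided, p = 0.0286 for each, the smallest that 4 against 4 allows, and 0.0286 after adjustment over the 2). Nr1h3, which encodes LXRalpha, was measured at 81.3, 87.4, 102 and 109.7 TPM in chow and 119.998, 101, 101 and 110.1 TPM in MASH livers, a difference of 0.19 ± 0.10 (SE, log2(TPM + 1) scale) that missed the threshold (adjusted p = 0.117), passed it without chow replicate 4 (0.26, adjusted p = 0.0406) and turned to -0.31, past the threshold, after the rescaling described below (adjusted p = 0.00837). The design text gives the symbol Nr1h2, usually that of LXRbeta, for the edited gene; Nr1h2 was at 24.8 ± 2.78 and 39.1 ± 1.06 TPM (0.64 ± 0.10, adjusted p = 3.32e-06), a rise that missed the threshold after rescaling (0.15). Gene totals cannot show which allele a read came from. One chow library, replicate 4, stood above the other 3 by over 2 log2 units in 16 genes, mostly acute phase genes, and chow replicate 3 stood below the others in 10, among them clock genes. For genes in which either library changed a call or moved the difference by more than 1 log2 unit, the value without it is given too. The defining hepatocyte markers were abundant in all 8 libraries, at a summed 60219 to 93476 TPM in chow and 61583 to 69243 TPM in MASH livers, while the adipocyte markers Adipoq and Lep were at 0 in every library. Of 2 pancreatic markers, Pnlip was at 0 in every library and Cela1 was at 35.9 to 65.0 TPM in chow and 12.5 to 20.01 TPM in MASH livers, lower under both scalings; its part in the results was not tested.

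The diet contrast touched most of the measured transcriptome. Of the 16638 genes, 10145 differed at an adjusted p under 0.05 (limma, 61.0%), 8725 of them higher (52.4%) and 1420 lower (8.53%), and 2991 rose and 427 fell by at least 2-fold. The median gene was higher by 0.39 log2 units, so the split depends on scaling: after libraries were rescaled by median-of-ratios factors, which bring the median gene to 0, 9128 genes passed (54.9%), 4637 higher (27.9%) and 4491 lower (27.0%). All 4637 of those higher genes and all 1420 lower genes as deposited kept their call and direction under both scalings, and 240 genes called both ways flipped from higher to lower. The factors were 0.860 to 0.912 in chow and 1.15 to 1.33 in MASH libraries, so rescaling lowered every difference. A gene lower as deposited had to keep that direction, and a gene higher after rescaling had to be higher as deposited. The kept directions are therefore no separate support. Without regard to any model, 7616 genes had all 4 MASH libraries above all 4 chow libraries (45.8%) and 1072 had all 4 below (6.44%). Counts of rises, falls and absent overlap in the gene lists below are to be read beside these shares of all genes. Values are means ± SD over 4 libraries, and a difference, with its SE, is MASH minus chow on the log2(TPM + 1) scale, which understates the change of genes near 0, and a rise under 0.39 is smaller than that of the median gene.

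**Figure D1:**
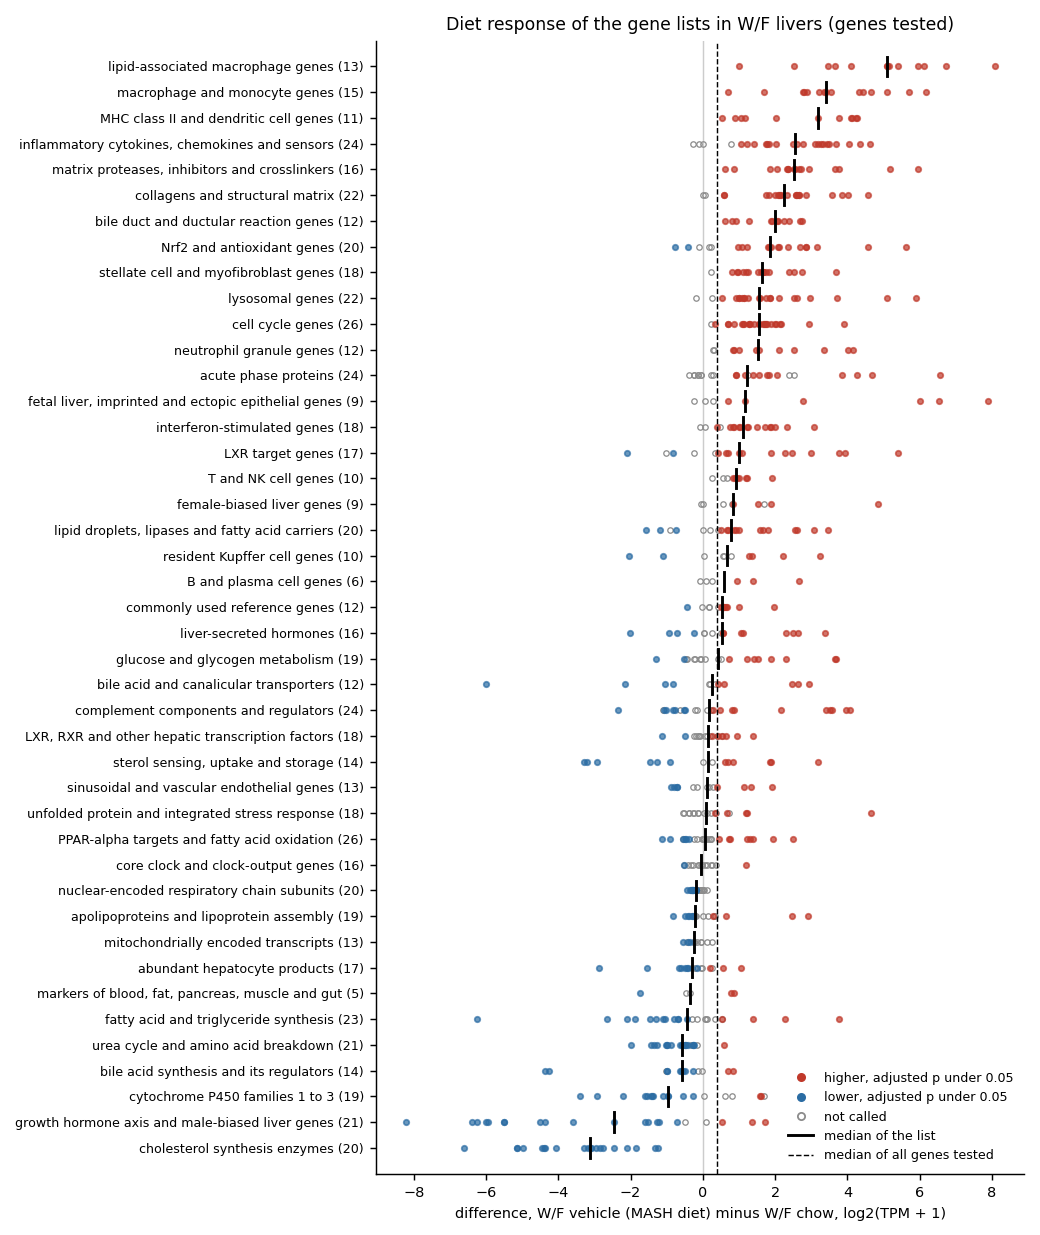
Median difference between MASH-diet and chow W/F livers for each gene list, on the log2(TPM + 1) scale, with the number of tested members in parentheses. The cholesterol synthesis list lies lowest at -3.14 and the lipid-associated macrophage list highest at 5.10, against a median of 0.39 over all genes.

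The largest rises without overlap were those of Gpnmb and Ly6d. Gpnmb, a glycoprotein of lysosome-rich macrophages, stood at 0.607, 0.543, 0.409 and 0.644 TPM in chow and at 278, 479, 597 and 385 TPM in MASH livers (8.08 ± 0.53, adjusted p = 2.02e-13). Ly6d, a GPI-anchored surface protein, stood at 0.322, 1.11, 2.34 and 2.19 TPM against 565, 303, 591 and 929 TPM (7.89 ± 0.51, adjusted p = 1.35e-13). Both genes were near absence in every chow liver and abundant in every MASH liver. Ubd, a ubiquitin-like modifier induced by inflammatory cytokines, went from 1.73 ± 0.453 to 284 ± 40.3 TPM (SD, n = 4 each, 6.71 ± 0.63, adjusted p = 1.94e-10). Sprr1a, a cornified envelope protein of stressed epithelium, went from 0.290 ± 0.236 to 122 ± 42.5 TPM (6.53 ± 0.58, adjusted p = 5.87e-11). H19, an imprinted long noncoding RNA of fetal liver, went from 0.460 ± 0.197 to 94.1 ± 24.96 TPM (5.999 ± 0.41, adjusted p = 5.26e-13). The other 7 of the 12 largest rises that did not overlap were Lgals3, Lcn2, Cd14, Clec7a, Cd63, Mmp12 and Ctss, between 5.89 for Ctss and 6.73 for Lgals3. For Lcn2, an iron-scavenging acute phase protein, chow replicate 4 stood at 418 TPM and the other 3 chow livers at 3.93 to 4.68 TPM. Its rise of 6.55 became 8.13 without that library.

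Of the largest falls without overlap, most were in major urinary protein genes, described after Hsd3b5 and Elovl3. Hsd3b5, a male-specific steroid reductase, stood at 486, 496, 391 and 329.9 TPM in chow and at 0.542, 0.152, 0.525 and 0.464 TPM in MASH livers (-8.22 ± 0.90, adjusted p = 3.76e-09). Elovl3, a fatty acid elongase, stood at 194, 361, 957 and 287 TPM against 9.15, 1.97, 1.01 and 8.38 TPM (-6.26 ± 0.56, adjusted p = 8.11e-11). Neither gene kept as much as a 10 TPM level in any MASH liver. Of the 12 largest falls, 7 were major urinary protein genes, pheromone carriers secreted by male liver: Mup7, Mup15, Mup11, Mup17, Mup14, Mup21 and Mup16, from -9.74 for Mup7 to -6.24 for Mup16. Idi1, described with cholesterol synthesis, and the pseudogenes Gtpbp4-ps1 and Serpina4-ps1 complete the 12. Most of the sequence of several of these is repeated elsewhere among the transcripts (all of the 50-base stretches of Mup15 and 86.7% of those of Mup7, 83.0% for Gtpbp4-ps1, and 19.3% to 91.7% for the other 5 Mup genes), so the split of reads between family members is uncertain. Among genes named below, the share is 9.12% for Actb, 11.0% for Cd63, 11.2% for Cyp2b9, 11.6% for Spp1, 13.3% for Mup3, 15.4% for Lyz2, 21.2% for Hsd3b5, 22.7% for Orm2, 25.7% for Cyp2c54, 28.8% for Gstm3 and 31.5% for Saa1, and it is given beside the values of Idi1, Cyp2a4, Serpina3k, Trf, Oas1a and Gsta1.

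**Figure D2:**
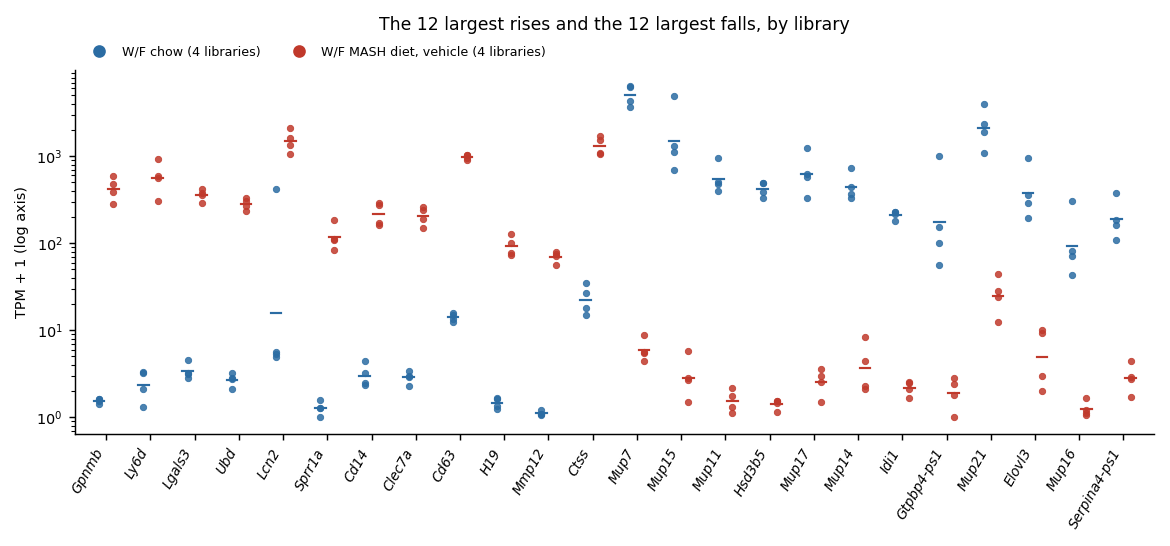
TPM + 1 on a log axis in each of the 4 chow and 4 MASH-diet W/F livers for the 12 largest rises and the 12 largest falls without overlap. Points are libraries and short bars the means of the log values; every gene shown separates the groups, and Lcn2 has 1 chow point at 418 TPM far above the other chow points.

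Cholesterol synthesis fell as a block. The list holds the enzymes from acetyl-CoA to cholesterol. All 20 measured enzymes of the pathway were lower in MASH livers, with no overlap in any of them. All 20 stayed lower after rescaling, which by itself lowers every difference. Their median was -3.14, against 0.39 over all genes, and their summed level had been 4284 to 5607 TPM in chow. Over all genes, 8.53% were lower as deposited and 27.0% after rescaling, and 6.44% lay below chow with no overlap. In the chow livers, replicate 3 held the highest level of 15 of the 20 enzymes.

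The 2 enzymes with the largest fall and the highest level, Idi1 and Hmgcs1, are shown with their promoters, since every member of their pathway fell. Idi1, isopentenyl diphosphate isomerase, lies at chr13:8885501-8892451 and Hmgcs1, cytosolic HMG-CoA synthase, at chr13:119690379-119708260 of GRCm38. Each window runs from 250 bases before to 50 bases after the RefSeq start (build GRCm38.p6, plus strand, chr13:8885356-8885655 for Idi1 and chr13:119690101-119690400 for Hmgcs1), 5′ to 3′. Capitals mark CCAAT boxes on either strand, which read ATTGG when on the minus strand and are the site of the factor NF-Y, and the sterol regulatory element sequence TCACNCCAC on either strand.
Idi1: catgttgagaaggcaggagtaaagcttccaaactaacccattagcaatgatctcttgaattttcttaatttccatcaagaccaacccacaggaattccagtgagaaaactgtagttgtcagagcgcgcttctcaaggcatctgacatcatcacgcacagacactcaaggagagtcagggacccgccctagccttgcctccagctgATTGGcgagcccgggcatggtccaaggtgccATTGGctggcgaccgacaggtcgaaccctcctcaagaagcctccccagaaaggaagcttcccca
Hmgcs1: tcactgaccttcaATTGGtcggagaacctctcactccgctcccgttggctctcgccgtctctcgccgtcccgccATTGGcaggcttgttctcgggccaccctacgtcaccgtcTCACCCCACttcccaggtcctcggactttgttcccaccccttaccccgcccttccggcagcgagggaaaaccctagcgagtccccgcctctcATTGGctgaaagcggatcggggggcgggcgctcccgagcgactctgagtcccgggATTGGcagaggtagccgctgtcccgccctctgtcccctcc
The Idi1 window held 2 CCAAT boxes and no TCACNCCAC, and the Hmgcs1 window held 4 CCAAT boxes and 1 TCACNCCAC. Of the 20 enzymes, 15 had a promoter entry; CCAAT was found in 14 of the 15 (93.3%), all but Acat2, against 41.1% of 27025 genes with an entry. Among genes with an entry in 2 other lists, CCAAT was found in 9 of 15 urea cycle and amino acid breakdown genes. It was found in 5 of 10 lipid-associated macrophage genes. TCACNCCAC was found in 1 of the 15 enzymes (6.67%), Hmgcs1, against 1.44% of all genes. It was also found in 1 of the 15 urea cycle genes and 1 of the 10 macrophage genes. With 1 gene in each list, TCACNCCAC did not set the cholesterol synthesis list apart. These matches describe the letters of the windows and show no binding.

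Idi1 was measured at 180.5, 224, 225 and 218 TPM in chow livers and at 1.09, 1.51, 1.56 and 0.674 TPM in MASH livers (-6.61 ± 0.23, adjusted p = 7.51e-20). About 17.7% of its 50-base stretches recur in other transcripts. Hmgcs1 was measured at 1075, 1318, 1566 and 1075 TPM in chow and 43.9, 63.3, 58.6 and 59.4 TPM in MASH livers (-4.45 ± 0.21, adjusted p = 1.79e-16). The 4 livers of each group lay close together and far from the other group. Sqle, squalene epoxidase, stood at 116, 125, 145 and 163 TPM against 2.77, 3.29, 2.85 and 2.57 TPM (-5.15 ± 0.17, adjusted p = 3.72e-20). Idi1, Hmgcs1 and Sqle each fell by more than 4 log2 units, further than the median of -3.14 over the 20 enzymes. Idi1 was named for the largest fall of the list.

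**Figure D3:**
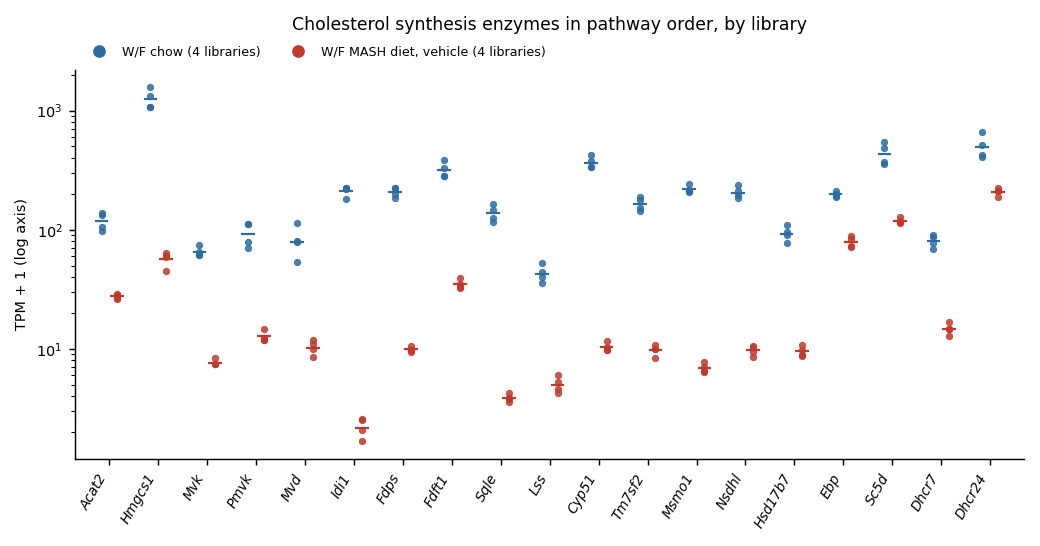
TPM + 1 on a log axis for 19 of the 20 cholesterol synthesis enzymes in pathway order, in each W/F liver library. Points are libraries and short bars the means of the log values; in every enzyme shown the 4 MASH-diet points lie below the 4 chow points, with Idi1 the lowest at 0.674 to 1.56 TPM.

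Among 14 measured genes of sterol sensing, uptake and storage, 6 rose and 6 fell (median 0.13; 4 and 7 after rescaling). Insig1, the endoplasmic reticulum protein that holds back SREBP processing and is itself an SREBP target, stood at 318, 346, 559.7 and 457 TPM in chow and at 47.6, 44.8, 37.8 and 34.2 TPM in MASH livers (-3.30 ± 0.22, adjusted p = 2.74e-13). The cholesterol-esterifying enzyme gene Soat1, which macrophages use in forming foam cells, went the other way, from 0.569 ± 0.0782 to 13.5 ± 3.19 TPM (3.19 ± 0.22, adjusted p = 6.27e-13).

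LXR target genes did not move as one. Of 17, 12 rose and 2 fell (median 1.00; 9 and 4 after rescaling), against 52.4% and 8.53% of all genes (27.9% and 27.0% after rescaling). Abcg1, the sterol exporter prominent in macrophages, stood at 1.15, 1.59, 1.82 and 1.92 TPM in chow and 31.3, 42.7, 49.5 and 32.9 TPM in MASH livers (3.92 ± 0.24, adjusted p = 3.20e-14). Lpl, lipoprotein lipase, which is low in adult hepatocytes and made by macrophages, went from 1.85 ± 0.385 to 119.5 ± 22.1 TPM (5.39 ± 0.30, adjusted p = 7.08e-15). Both of these macrophage-expressed targets rose by more than 3 log2 units, and their rise came with a summed level of macrophage and monocyte markers of 48.2 to 83.1 TPM in chow and 2500 to 3317 TPM in MASH livers, whose part in the result was not tested. In bulk liver RNA, more cells of a type and more RNA per cell cannot be told apart.

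The canalicular sterol exporters that hepatocytes express went differently. Abcg8 stood at 93.1, 106, 63.8 and 41.9 TPM in chow and 34.6, 55.7, 38.1 and 34.5 TPM in MASH livers (-0.83 ± 0.27, adjusted p = 0.00964), with some overlap, and missed the threshold without chow replicate 2 (-0.64, adjusted p = 0.0546). Abcg5 was at 84.3 ± 25.5 and 69.1 ± 8.90 TPM (-0.24, adjusted p = 0.39) and was called lower only after rescaling (-0.74). Srebf1, which encodes the lipogenic factor SREBP1, was at 49.6 ± 14.3 and 61.8 ± 13.2 TPM (0.33, adjusted p = 0.184, and -0.16 after rescaling). Abca1, the exporter that loads HDL, rose by 0.69 ± 0.15 (adjusted p = 2.18e-04) as deposited but by 0.20 after rescaling, where it missed the threshold. None of Abcg5, Abcg8 and Abca1 thus rose under both scalings, unlike Abcg1 and Lpl.

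Fatty acid and triglyceride synthesis leaned down. Of 23 genes, 12 fell and 4 rose (median -0.43; 14 and 3 after rescaling). Fasn, fatty acid synthase, stood at 91.4, 56.4, 80.1 and 54.1 TPM in chow and 28.8, 13.1, 11.1 and 13.02 TPM in MASH livers (-2.09 ± 0.41, adjusted p = 6.65e-05). Scd1, the desaturase that makes monounsaturated fatty acids, went up, from 30.0, 63.5, 37.8 and 21.8 TPM to 322, 616, 612 and 504 TPM (3.77 ± 0.30, adjusted p = 5.42e-12). The synthase and the desaturase of the same pathway thus moved in opposite directions, each without overlap between groups. Elovl3, given above, had the largest fall of this list.

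Of 20 lipid droplet, lipase and fatty acid carrier genes, 13 rose and 3 fell (median 0.77; 9 and 5 after rescaling). Over all genes 52.4% rose and 8.53% fell, so more rises than falls are no trait of this list. After rescaling the shares of all genes were 27.9% and 27.0%. Fabp5, the fatty acid binding protein of macrophages and epithelium, went from 10.5 ± 7.72 to 111 ± 31.7 TPM (3.46 ± 0.36, adjusted p = 1.81e-09). Fabp1, the main carrier of hepatocytes, went from 8390.3 ± 2962 to 2729 ± 573 TPM (-1.57 ± 0.22, adjusted p = 3.90e-07). Fabp5 and Fabp1 were named as the largest rise and the largest fall of the list, so their opposite directions follow from that choice. Among 26 genes of fatty acid oxidation and PPAR-alpha targets, 8 rose and 6 fell as deposited, but 3 rose and 15 fell after rescaling, so the balance of this list follows the scaling. Fgf21, a hepatic stress hormone, rose from 0.630, 3.47, 0.731 and 0.245 TPM to 7.14, 9.65, 9.90 and 15.7 TPM (2.49 ± 0.39, adjusted p = 1.97e-06), while Ppara itself fell from 64.3 ± 15.7 to 31.7 ± 17.2 TPM (-1.12 ± 0.30, adjusted p = 0.00163), with overlap.

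Bile acid synthesis genes were mostly lower: 9 of 14 fell and 2 rose (median -0.58; 11 and 0 after rescaling). Cyp8b1, the sterol 12-alpha-hydroxylase that makes cholic acid, stood at 523, 517, 583 and 346 TPM in chow and 23.1, 25.6, 13.8 and 42.3 TPM in MASH livers (-4.26 ± 0.31, adjusted p = 1.25e-12). Cyp7b1, the oxysterol 7-alpha-hydroxylase of the alternative pathway, stood at 683, 437, 469 and 959 TPM against 40.9, 35.2, 17.9 and 24.2 TPM (-4.38 ± 0.54, adjusted p = 3.31e-08). Cyp7a1, the rate-limiting enzyme of the classical pathway, was at 125, 76.5, 54.3 and 44.9 TPM against 36.4, 46.3, 29.2 and 27.1 TPM, a difference of -1.01 ± 0.45 that missed the threshold as deposited (adjusted p = 0.0515) and passed it after rescaling (-1.50, adjusted p = 0.0049), without chow replicate 3 (-1.13), without chow replicate 4 (-1.22) and without MASH replicate 2 (-1.16). The groups were therefore clearly separate for Cyp8b1 and Cyp7b1, and overlapped by 1 chow and 1 MASH library for Cyp7a1.

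Bile acid carriers were divided. Of 12 transporters, 5 rose and 4 fell (median 0.26), and after rescaling 3 rose and 4 fell (median -0.23). Over all genes 52.4% rose and 8.53% fell as deposited. After rescaling 27.9% rose and 27.0% fell, and the rescaled counts lie close to those shares. Slc10a1, the sodium-dependent uptake carrier of the sinusoidal membrane, went from 656 ± 111 to 146 ± 24.2 TPM (-2.16 ± 0.21, adjusted p = 4.50e-10). Slco1a1, a male-biased organic anion uptake carrier, went from 260.3 ± 55.0 to 3.13 ± 1.36 TPM (-6.01 ± 0.40, adjusted p = 2.44e-13). Abcc4, an efflux pump of the basolateral membrane, went from 0.641 ± 0.0514 to 12.4 ± 4.79 TPM (2.95 ± 0.28, adjusted p = 3.19e-10). Slco1a1 and Abcc4 were named as the largest fall and the largest rise of the list, and Slc10a1 for its level. Their directions therefore show no pattern of uptake against efflux over the list.

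Apolipoprotein and lipoprotein assembly genes leaned down (6 fell and 4 rose of 19, median -0.21; 12 and 2 after rescaling, median -0.71). Apoa4, an apolipoprotein raised by dietary fat, stood at 42.9, 69.9, 67.3 and 55.2 TPM in chow and 501, 377, 439 and 463 TPM in MASH livers (2.92 ± 0.32, adjusted p = 3.46e-09). Apoa2, a main HDL protein, went from 16608 ± 2654 to 9224 ± 907 TPM (-0.84 ± 0.14, adjusted p = 4.58e-06). Apoe, the remnant apolipoprotein, rose by 0.65 ± 0.11 (adjusted p = 4.81e-06) as deposited, but by 0.15 and short of the threshold after rescaling.

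Male-biased liver genes had the second lowest median of the 43 lists. Of 21 genes of the growth hormone axis and male-biased set, 16 fell and 3 rose (median -2.46; 18 and 0 after rescaling). Mup3, the most abundant of them, stood at 21894, 21884, 21768 and 19315 TPM in chow and 897, 293, 256 and 709 TPM in MASH livers (-5.50 ± 0.40, adjusted p = 1.08e-12). Of 20 Mup genes tested, 18 fell and none rose, and 19 fell after rescaling. The 21 Mup genes together, a measure less affected by how reads were split within the family, took 4.79% ± 0.777 of TPM in chow and 1.195% ± 0.568 in MASH livers (SD, n = 4 each), with the chow libraries at 4.11% to 5.91% and the MASH libraries at 0.648% to 1.84%. Of 9 measured female-biased genes, 4 rose and none fell (median 0.82), a rising share below the 52.4% of all genes. After rescaling 3 rose and none fell, against 27.9% and 27.0% of all genes. Another 5 members of this list were not tested. Cyp2a4, a female-biased steroid hydroxylase, went from 0.758, 2.17, 2.07 and 1.27 TPM to 20.6, 90.8, 122 and 104 TPM (4.83 ± 0.51, adjusted p = 1.66e-09), and 38% of its 50-base stretches recur in other transcripts.

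Drug-metabolizing and amino acid enzymes fell with them. Of 19 cytochrome P450 genes of families 1 to 3, 13 fell and 2 rose in either scaling (median -0.98). Cyp2e1, the ethanol-inducible form, stood at 7562, 7123, 6579 and 5294 TPM in chow and 2213, 3622, 2351 and 1885 TPM in MASH livers (-1.43 ± 0.25, adjusted p = 1.05e-05). Cyp2c54 went from 350.1 ± 92.7 to 33.1 ± 15.1 TPM (-3.41 ± 0.30, adjusted p = 5.52e-11). Cyp2c55 rose from 13.2 ± 5.35 to 40.4 ± 5.49 TPM (1.61 ± 0.32, adjusted p = 6.29e-05), against the direction of the family.

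In the urea cycle and amino acid breakdown, 18 of 21 genes fell and 1 rose (median -0.57; 20 and 0 after rescaling). Gnmt, the methyltransferase that turns glycine into sarcosine and sets the liver's methylation balance, stood at 2878, 2542, 3005 and 2496 TPM in chow and 763, 1024, 1137 and 1113 TPM in MASH livers (-1.45 ± 0.15, adjusted p = 1.13e-09). Hal, histidine ammonia lyase, went from 209 ± 63.3 to 50.9 ± 9.17 TPM (-1.99 ± 0.23, adjusted p = 1.15e-08). In glucose and glycogen metabolism, 8 rose and 2 fell of 19 as deposited and 8 and 9 after rescaling. The shares of all genes were 52.4% and 8.53% as deposited, and 27.9% and 27.0% after rescaling. G6pc, which releases glucose from hepatocytes, went from 279 ± 55.0 to 113 ± 28.3 TPM (-1.31 ± 0.42, adjusted p = 0.00851), and Hk3, a hexokinase of myeloid cells, from 1.55 ± 0.598 to 31.9 ± 6.77 TPM (3.69 ± 0.43, adjusted p = 1.25e-08).

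Abundant hepatocyte products were less uniform. Of 17, 8 fell and 3 rose (median -0.29; 13 and 1 after rescaling). Serpina3k stood at 12883, 12050.1, 10441 and 13006 TPM in chow and 2427, 1298, 1449 and 1612 TPM in MASH livers (-2.87 ± 0.27, adjusted p = 2.27e-10). Trf, transferrin, rose from 2819 ± 428 to 5859 ± 610.2 TPM (1.06 ± 0.14, adjusted p = 6.91e-08). Both share sequence with other transcripts, 14% and 59.4% of their 50-base stretches. Alb, albumin, was at 61528, 58834, 52646 and 33922 TPM in chow and 36841, 44609, 42657 and 40644 TPM in MASH livers (-0.30, adjusted p = 0.184), with chow replicate 4 below every MASH liver; without that library its difference was -0.49 and passed (adjusted p = 0.0265), and it passed after rescaling at -0.80. Among 18 hepatic transcription factors, 6 rose and 2 fell (2 and 8 after rescaling), a rising share below the 52.4% of all genes. Pparg, the lipogenic PPAR, rose from 11.3 ± 4.45 to 30.1 ± 6.40 TPM (1.38 ± 0.22, adjusted p = 3.24e-06).

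Oxidative phosphorylation genes fell slightly. Of 20 nuclear-encoded respiratory chain subunits, 11 fell and none rose (median -0.19), and all 20 fell relative to the median gene, that is, after rescaling. Sdha, the flavoprotein of complex II, stood at 352, 362, 403 and 361 TPM in chow and 248, 289, 286 and 262 TPM in MASH livers (-0.44 ± 0.09, adjusted p = 1.11e-04). Of 13 mitochondrially encoded transcripts, 3 fell and none rose, 12 fell after rescaling, and 7 fell without chow replicate 4.

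Macrophage lists had the 2 highest medians of the 43 lists. All 15 macrophage and monocyte genes rose, with no overlap in any (median 3.42; 14 of 15 after rescaling), and all 13 genes of lipid-associated macrophages rose in both scalings (median 5.10). Over all genes 52.4% rose as deposited and 27.9% after rescaling, and 45.8% lay above chow with no overlap. Lyz2, the lysozyme of myeloid cells, stood at 33.3, 40.2, 54.5 and 54.8 TPM in chow and 2262, 2332, 2889 and 2172 TPM in MASH livers (5.71 ± 0.42, adjusted p = 1.84e-12). Trem2, the lipid receptor that defines these macrophages, stood at 0.315, 0.214, 0.0937 and 0.283 TPM against 38.1, 42.7, 50.3 and 38.3 TPM (5.14 ± 0.27, adjusted p = 1.44e-15). Trem2 was thus close to absent in every chow liver. Spp1, osteopontin, which bile duct cells also make, went from 106 ± 49.8 to 1243 ± 192 TPM (3.65 ± 0.29, adjusted p = 6.90e-12). Cd63, a tetraspanin of late endosomes, went from 13.2 ± 1.57 to 985 ± 63.2 TPM (6.12 ± 0.34, adjusted p = 7.08e-15). The summed level of the 4 markers fixed for lipid-associated macrophages was 62.3 to 171 TPM in chow and 1758 to 2042 TPM in MASH livers. Spp1 made up most of both sums. The other means were 10.5 and 193 TPM for Cd9, 0.551 and 435 for Gpnmb, and 0.226 and 42.4 for Trem2, in chow and MASH livers.

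Genes of resident Kupffer cells, the macrophages seeded before birth, were mixed: 4 of 10 rose and 2 fell in either scaling. Clec4f, the most specific of them, stood at 28.4, 39.5, 44.1 and 57.7 TPM in chow and 64.6, 25.03, 34.9 and 55.4 TPM in MASH livers (0.03, adjusted p = 0.928, and -0.46 after rescaling). Cd5l, a secreted scavenger protein of the same cells and an LXR target, went from 29.2 ± 13.9 to 263 ± 40.5 TPM (3.23 ± 0.38, adjusted p = 1.83e-08). The 2 members that fell, named after their values were seen, were Timd4, a phosphatidylserine receptor of long-lived Kupffer cells, from 1.65, 2.55, 3.47 and 3.22 TPM to 0.949, 0, 0.642 and 1.56 TPM (-1.11 ± 0.23, adjusted p = 1.33e-04), and Cd163, the haemoglobin scavenger receptor, from 4.55 ± 2.44 to 0.272 ± 0.169 TPM (-2.04 ± 0.19, adjusted p = 9.95e-11). Markers of 1 resident population therefore did not share a direction.

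Inflammatory cytokine, chemokine and sensor genes rose in 20 of 24 (median 2.56; 20 rose and 1 fell after rescaling). Ccl2, the chemokine that recruits monocytes, stood at 0.737, 0.207, 1.43 and 5.33 TPM in chow and 48.1, 60.6, 57.0 and 66.0 TPM in MASH livers (4.62 ± 0.56, adjusted p = 2.94e-08). Cd14, the co-receptor for bacterial lipopolysaccharide, stood at 1.45, 1.35, 3.39 and 2.22 TPM against 161, 168, 291 and 273 TPM (6.17 ± 0.49, adjusted p = 5.99e-12). Neither overlapped. Cxcl1, a neutrophil attractant, did: chow replicate 4 held 187 TPM, above every MASH liver at 98.4 to 127 TPM, while the other chow livers held 5.13 to 9.05 TPM (2.62 ± 0.79, adjusted p = 0.00529, and 3.74 without that library).

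Genes of other immune cells were mostly higher. Of 12 neutrophil granule genes 10 rose and none fell (median 1.51), with S100a8, a subunit of calprotectin, at 0.173, 0.679, 0.501 and 2.69 TPM against 27.2, 28.6, 47.4 and 26.6 TPM (4.16 ± 0.52, adjusted p = 4.79e-08). Of 10 T and NK cell genes 7 rose and none fell, but at low levels: the summed T and NK markers were 0.318 to 1.19 TPM in chow and 4.27 to 9.43 TPM in MASH livers. Of 6 B cell and plasma cell genes 3 rose, a share close to the 52.4% of all genes. All 11 genes of MHC class II presentation and dendritic cells rose (median 3.18; 10 after rescaling), and H2-Aa, a class II alpha chain, stood at 9.02, 9.12, 21.1 and 9.27 TPM against 271, 225, 249 and 202 TPM (4.26 ± 0.55, adjusted p = 9.67e-08, and 4.54 without chow replicate 3). Among 18 interferon-stimulated genes 15 rose and none fell (median 1.11; 10 and 1 after rescaling), led by Oas1a, an antiviral oligoadenylate synthetase, from 2.17 ± 0.950 to 24.7 ± 1.39 TPM (3.07 ± 0.35, adjusted p = 7.01e-09, with 57.6% of its sequence shared). The medians of the T and NK cell list and the B cell list were 0.91 and 0.59, below those of the neutrophil and macrophage lists.

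Scar matrix genes rose nearly throughout. Of 22 collagens and structural matrix genes 20 rose and none fell (median 2.24; 20 and 2 after rescaling). Col1a1, the main chain of fibrillar collagen, stood at 3.89, 4.53, 3.99 and 4.24 TPM in chow and 186, 109, 93.1 and 115 TPM in MASH livers (4.57 ± 0.39, adjusted p = 3.33e-11). All 16 proteases, inhibitors and crosslinkers of the matrix rose (median 2.53; 15 after rescaling). Timp1, the metalloproteinase inhibitor, stood at 0.270, 0.531, 0.131 and 0.394 TPM against 50.4, 46.1, 42.2 and 48.9 TPM (5.17 ± 0.36, adjusted p = 7.19e-13). Mmp12, the elastase of macrophages, went from 0.121 ± 0.0709 to 69.0 ± 9.84 TPM (5.96 ± 0.35, adjusted p = 2.59e-14). Of 18 stellate cell and myofibroblast genes 17 rose (median 1.63), with Acta2, smooth muscle actin of activated stellate cells, at 3.96 ± 2.00 and 14 ± 1.07 TPM (1.67 ± 0.37, adjusted p = 2.31e-04). Summed myofibroblast markers were 12.0 to 17.6 TPM in chow and 211 to 348 TPM in MASH livers, and stellate cell markers 64.9 to 94.8 and 132 to 153 TPM. The part of these cells in the matrix result was not tested.

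Bile duct and ductular reaction genes all rose (12 of 12, median 1.99; 11 after rescaling). Krt19, a keratin of bile ducts, stood at 2.00, 1.14, 2.25 and 1.38 TPM in chow and 16.4, 14.01, 8.27 and 9.52 TPM in MASH livers (2.25 ± 0.22, adjusted p = 4.09e-10). Epcam, an adhesion molecule of ducts and progenitors, went from 2.67 ± 1.61 to 22.8 ± 8.18 TPM (2.75 ± 0.30, adjusted p = 3.59e-09). Endothelial genes were divided, with 4 of 13 higher and 4 lower (3 and 7 after rescaling): Lyve1, the hyaluronan receptor of sinusoids, rose from 3.07 ± 1.14 to 13.97 ± 1.73 TPM (1.91 ± 0.28, adjusted p = 8.37e-07), and Clec4g, a lectin of the same endothelium, fell from 29.9 ± 3.00 to 16.04 ± 3.88 TPM (-0.88 ± 0.15, adjusted p = 9.61e-06).

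Cell cycle genes rose in 25 of 26 (median 1.55; 22 after rescaling) and none fell. Mki67, a marker of dividing cells, stood at 0.905, 0.551, 0.553 and 1.04 TPM in chow and 4.55, 5.31, 5.14 and 3.30 TPM in MASH livers (1.66 ± 0.25, adjusted p = 1.15e-06). Ccnd1, cyclin D1, stood at 17.8, 9.76, 6.40 and 7.15 TPM against 90.8, 83.7, 70.7 and 74.7 TPM (2.94 ± 0.27, adjusted p = 1.35e-10), and Cdkn1a, the p21 inhibitor of cell division, went from 1.69 ± 0.591 to 39.9 ± 14.6 TPM (3.90 ± 0.45, adjusted p = 1.17e-08). Drivers of division and the inhibitor were thus both higher.

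Stress programmes differed from one another. Of 18 genes of the unfolded protein and integrated stress response, 5 rose and none fell as deposited (median 0.08), and 3 rose and 8 fell after rescaling. Over all genes 52.4% rose as deposited and 27.9% after rescaling, so a smaller share rose here under either scaling. Atf3, an immediate stress factor named as the largest rise of the list, rose from 1.19 ± 0.373 to 53.8 ± 5.57 TPM (4.65 ± 0.37, adjusted p = 9.52e-12). Of 20 Nrf2 and antioxidant genes 15 rose and 2 fell (median 1.86; 14 and 5 after rescaling). Gsta1, a glutathione transferase, stood at 0.752, 1.11, 5.82 and 1.10 TPM in chow and 122, 118, 117 and 176 TPM in MASH livers (5.62 ± 0.49, adjusted p = 4.16e-11, and 6.06 without chow replicate 3), though 90.5% of its 50-base stretches recur in other transcripts. Cat, peroxisomal catalase, fell from 2551 ± 306 to 1478 ± 120.3 TPM (-0.78 ± 0.12, adjusted p = 1.25e-06). Lysosomal genes rose in 20 of 22 (median 1.56; 19 and 1 lower after rescaling), led by Ctss, cathepsin S of antigen-presenting cells, at 13.9, 16.9, 25.6 and 33.7 TPM against 1071, 1525, 1683 and 1101 TPM (5.89 ± 0.42, adjusted p = 1.03e-12). Of 16 liver-secreted hormones 8 rose and 4 fell (median 0.52), and 6 rose and 4 fell after rescaling (median 0.02). The share that rose as deposited was close to the 52.4% of all genes. Gdf15, a stress hormone that curbs appetite, rose from 6.56 ± 3.501 to 71.5 ± 15.8 TPM (3.37 ± 0.53, adjusted p = 2.39e-06), and Enho, which encodes adropin, fell from 94.4 ± 24.3 to 22.1 ± 0.990 TPM (-2.01 ± 0.23, adjusted p = 7.30e-09). Of 12 commonly used reference genes 7 rose and 1 fell, shares close to the 52.4% and 8.53% of all genes, and after rescaling 2 rose and 4 fell, with Actb at 329 ± 81.0 and 1279.7 ± 204 TPM (1.97 ± 0.19, adjusted p = 3.90e-10).

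The acute phase list rests partly on 1 chow liver. As deposited 12 of 24 genes rose and none fell (median 1.21), after rescaling 8 rose and 4 fell, and without chow replicate 4, 15 rose and none fell (median 1.66). Over all genes 52.4% rose as deposited and 27.9% after rescaling, so the counts of 12 and 8 lie close to those shares. That library held the highest chow level of 23 of the 24 genes. Saa1, serum amyloid A and the most inducible of them, stood at 22.2, 18.3, 18.7 and 3791 TPM in chow and 419.6, 305, 404 and 475 TPM in MASH livers (2.39 ± 1.23, adjusted p = 0.0937), and without chow replicate 4 the difference was 4.27 (adjusted p = 4.93e-04). Orm2, an orosomucoid, stood at 6.96, 12.2, 11.2 and 1251 TPM against 859, 549, 1359 and 1075 TPM (4.68 ± 1.06, adjusted p = 3.49e-04, and 6.39 without it). Both were named after their values were seen. Hpx, hemopexin, the haem scavenger, stood at 4159, 4158, 2958 and 15686 TPM against 16764, 17363, 20293 and 21707 TPM (1.83 ± 0.38, adjusted p = 1.21e-04, and 2.35 without chow replicate 4). In 3 chow livers these genes lay below every MASH liver, and in the fourth Saa1 and Orm2 lay within or above the MASH range. Complement genes were divided: 10 of 24 rose and 7 fell as deposited (6 and 13 after rescaling, 12 and 7 without chow replicate 4). The shares of all genes as deposited were 52.4% and 8.53%. C8b, of the membrane attack complex, fell from 492 ± 99.1 to 94.1 ± 13.5 TPM (-2.36 ± 0.24, adjusted p = 1.07e-09).

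**Figure D4:**
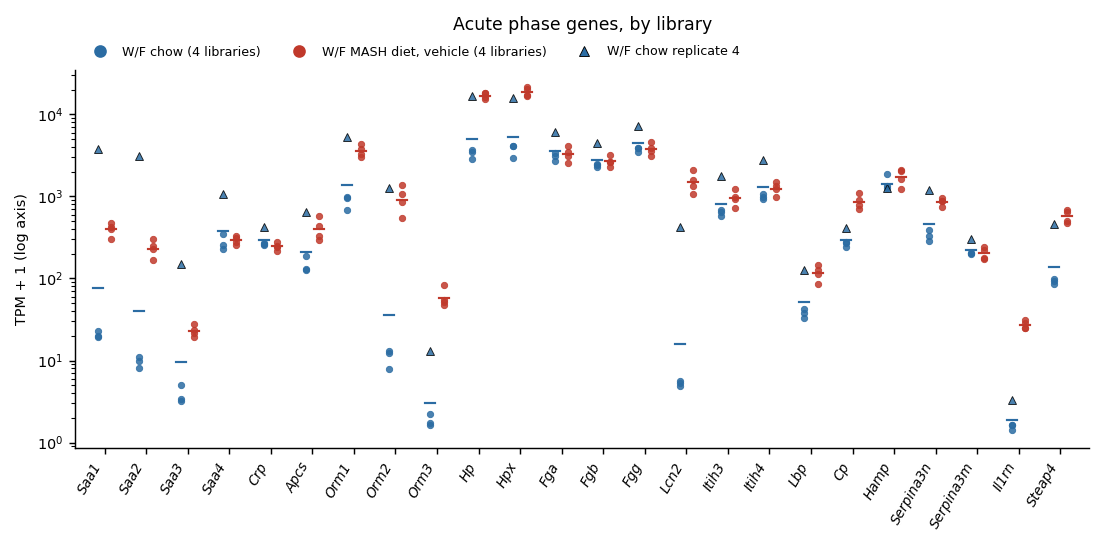
TPM + 1 on a log axis for acute phase genes in each chow and MASH-diet W/F liver, with chow replicate 4 as triangles and short bars at the means of the log values. Saa1 was at 3791 TPM in that library and at 18.3 to 22.2 TPM in the other 3 chow livers, against 305 to 475 TPM in MASH livers.

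Few clock genes changed. Of 16 core clock and output genes 1 rose and 1 fell, none rose and 6 fell after rescaling, and without chow replicate 3, none rose and 1 fell. Per1, the light-responsive period gene, stood at 25.9, 22.7, 1.79 and 17.2 TPM in chow and 35.2, 29.5, 26.9 and 28.2 TPM in MASH livers (1.199 ± 0.45, adjusted p = 0.021), so chow replicate 3 lay far below the rest, and the call was lost without it (0.44), without MASH replicate 1 (1.12) and after rescaling (0.72). Chow replicate 3 held the lowest chow level of 10 of the 16 genes; its part in the result was not tested.

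The response of W/F livers was next set against that of the other genotypes, each against its own chow cohort, by a test of the difference between responses. The W/F response differed from the W/W response in 9086 genes (54.6%), 8232 with a higher difference in W/F (49.5%) and 854 with a lower one (5.13%). It differed from the F/F response in 1136 genes (6.83%), 913 higher (5.49%) and 223 lower (1.34%), a count that dropped to 703, 722 and 746 without F/F chow replicate 3, F/F chow replicate 4 and W/F vehicle replicate 3. Within W/W mice 2141 genes were called, and within F/F mice 9279. Rescaling left 6671 differing from W/W, 52.4% of them higher, and 1353 differing from F/F, 63.5% of them higher.

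Cholesterol synthesis fell in all 3 genotypes, in 20 of 20 genes each, and more in W/F. The medians were -3.14 in W/F, -2.15 in W/W and -1.92 in F/F, and 15 of 20 genes fell further in W/F than in W/W and 15 further than in F/F. On chow the mean level was higher in W/F than in W/W for 18 of the 20 enzymes and higher than in F/F for 19, against 58.0% and 19.7% of all genes. Hmgcs1 was at 1258 ± 235 TPM in W/F chow, 536 ± 215 in W/W chow and 579 ± 206 in F/F chow, and at 56.3 ± 8.496, 60.4 ± 11.3 and 71.9 ± 9.46 TPM on the MASH diet. The difference of responses for Hmgcs1 was -1.39 against W/W (adjusted p = 2.82e-04) and -1.52 against F/F (adjusted p = 0.00155). For Hmgcs1 the 3 means were thus close together on the diet, and on chow that of W/F stood above the others.

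Macrophage, collagen and bile duct genes hardly moved in W/W livers. None of the 15 macrophage, 22 collagen or 12 bile duct genes fell in W/W, and 0, 0 and 1 rose. Over all 16638 genes, 431 rose and 1710 fell in W/W, so rises were few there whatever the list. By the test of the difference, 15 macrophage, 20 collagen and 11 bile duct genes had a higher response in W/F, against 49.5% of all genes. Trem2 was at 0.175 ± 0.0461 and 0.471 ± 0.235 TPM in W/W chow and MASH livers and Col1a1 at 3.11 ± 0.750 and 3.89 ± 3.05 TPM. The responses of W/F exceeded these by 4.83 (adjusted p = 1.61e-10) for Trem2 and 4.47 (adjusted p = 1.56e-07) for Col1a1. Of the 17 LXR targets, 9 had a higher response in W/F than in W/W and 4 a lower one (8 and 6 after rescaling). Over all genes the shares were 49.5% and 5.13%, so the 9 lie close to their share and the 4 above theirs. The 4 were Abcg5, Abcg8, Srebf1 and Fasn: Abcg5 rose in W/W from 81.5 ± 18.7 to 289.8 ± 41.4 TPM, and its W/F minus W/W difference was -2.08 (adjusted p = 6.86e-06). Srebf1 rose in W/W from 123 ± 7.66 to 398 ± 171 TPM, with a difference of -1.23 (adjusted p = 0.00121). Male-biased genes hardly moved in W/W, where 1 of 21 fell, a share below that of all genes. A lower response in W/F was found in 15 of 21, against 5.13% of all genes. For Mup3 the difference was -5.72 (adjusted p = 4.50e-09), with 19526 ± 2094 and 22853 ± 2779 TPM in W/W chow and MASH livers.

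The largest positive differences from W/W were Gpnmb (7.72, adjusted p = 4.08e-09), Lcn2 (7.25, adjusted p = 1.68e-04), Ly6d (7.06, adjusted p = 7.57e-09), Gstm3 (6.39, adjusted p = 5.09e-08) and Ubd (6.18, adjusted p = 1.56e-06). Gstm3, a glutathione transferase, went from 131 ± 47.4 to 2936 ± 326 TPM in W/F and from 116 ± 25.6 to 33.3 ± 13.5 TPM in W/W. The most negative were Mup7 (-9.53), Mup15 (-9.03), Mup17 (-8.95), Mup11 (-8.22) and Hsd3b5 (-7.55), with adjusted p between 1.16e-06 for Mup11 and 1.34e-05 for Hsd3b5. Hsd3b5 was at 423 ± 72.4 and 266 ± 41.8 TPM in W/W, so its near loss was not seen there. In F/F chow it was at 152 TPM in replicate 1 and at 1.88 to 6.79 TPM in the other 3, and at 0.719 ± 0.0389 TPM on the diet, a fall that was not called without that library (-1.22, adjusted p = 0.174).

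Fewer genes differed from the F/F response. Mean levels were higher in F/F chow than in W/F chow for all 13 lipid-associated macrophage genes, all 22 collagen and structural matrix genes, all 26 cell cycle genes and all 12 bile duct genes, against 79.8% of all genes. The median of lipid-associated macrophage genes was 5.10 in W/F and 2.24 in F/F, and 10 of 13 had a higher response in W/F. Gpnmb was at 34.8 ± 9.80 TPM in F/F chow against 0.551 ± 0.103 in W/F chow, and at 519 ± 59.2 and 435 ± 136 TPM on the MASH diet. Cell cycle genes rose in 6 of 26 in F/F and 16 had a higher response in W/F. Over all 16638 genes, 7737 rose in F/F and 5.49% had a higher response in W/F. Mki67 was already at 7.24 ± 1.89 TPM in F/F chow and 8.68 ± 1.94 on the diet. Bile duct genes rose in all 12 in F/F and none differed between the responses. As 6.83% of all genes differed, the lack of any in so short a list is no trait of it. Neutrophil granule genes had a lower median in W/F, 1.51 against 2.47, with 1 of 12 higher and 3 lower by the test of the difference.

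The largest positive differences from F/F were Cyp2b9 (6.43, adjusted p = 0.0015), Sprr1a (6.24, adjusted p = 1.55e-05), Scd1 (5.94, adjusted p = 1.00e-10), Ly6d (5.31, adjusted p = 2.22e-05) and H2-M2 (5.18, adjusted p = 5.93e-05). Scd1 was at 63.9 ± 20.01 TPM in F/F chow and 13.1 ± 1.61 on the MASH diet, a fall where W/F rose. Cyp2b9, a female-biased hydroxylase, was not called within W/F (2.73 ± 2.75 and 14.3 ± 10.3 TPM, 1.68, adjusted p = 0.102, and 2.74, adjusted p = 0.00558, without MASH replicate 1), and its difference came with a fall from 40.3 ± 28.2 to 0.200 ± 0.199 TPM in F/F. H2-M2, a nonclassical class I gene, stood at 0, 0.0760, 0.0747 and 0.301 TPM in W/F chow and 36.4, 32.5, 34.3 and 31.3 TPM in W/F MASH livers, with 11.8 ± 4.36 and 11.1 ± 7.45 TPM in F/F. The most negative were Mup15 (-6.59), Mup7 (-6.32), Hsd3b5 (-5.68), Mup17 (-5.59) and Mup11 (-4.53), with adjusted p between 0.00441 for Mup15 and 0.0152 for Mup11; F/F chow livers were lower on average for all 5, and F/F chow replicate 1 stood above the other 3 in each, at 1451 TPM against 26.5 to 88.1 TPM for Mup7. Without it the 5 differences ran from -7.90 for Mup15 to -5.70 for Mup11. On recovered reads (limma-voom) these 5 and the differences of Cyp2b9 and Cd5l missed the threshold. Of 10 Kupffer cell genes, 4 had a higher response in W/F than in F/F and 2 a lower one, Timd4 (-1.19, adjusted p = 0.0233) and Cd163 (-1.93, adjusted p = 2.33e-05), both of which averaged 0.141 TPM or less in F/F livers on either diet. The 4 higher were Clec4f, Cd5l, Vsig4 and Clec1b. Clec4f fell in F/F from 11.2 ± 3.62 to 0.354 ± 0.158 TPM, and the W/F response was higher by 3.15 (adjusted p = 5.93e-06), as was that of Cd5l by 3.28 (adjusted p = 2.48e-04), whose F/F level was 1.66 ± 0.390 and 1.58 ± 0.424 TPM.

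**Figure D5:**
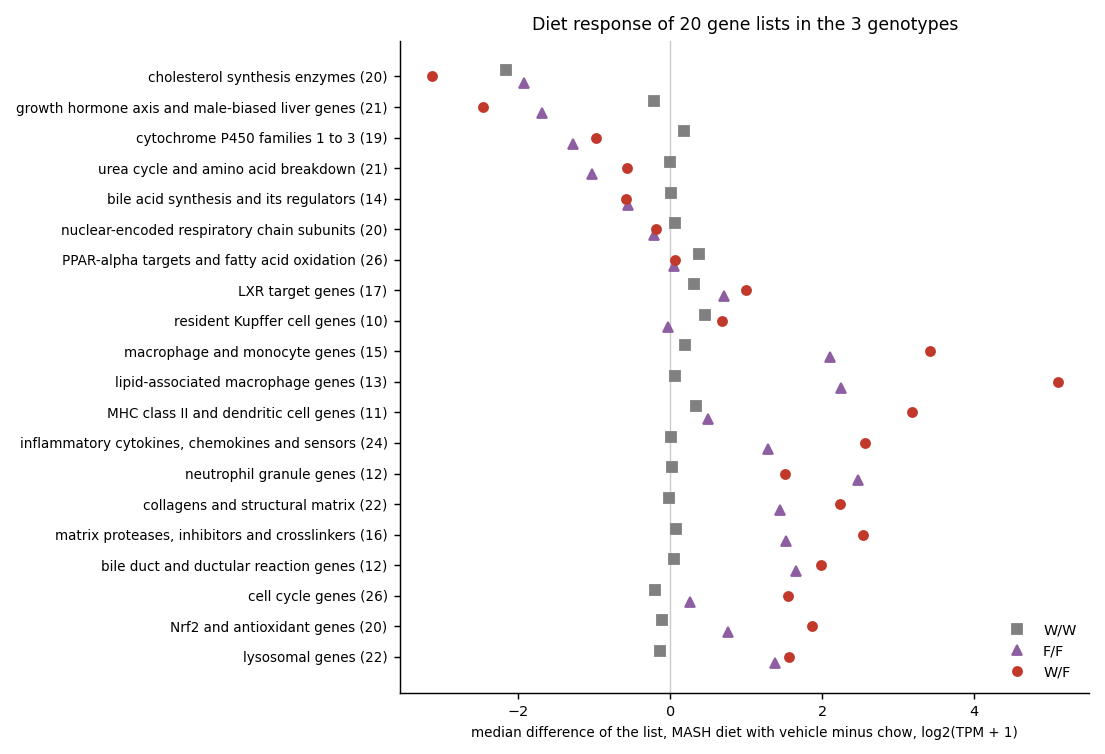
Median difference between MASH-diet and chow livers of 20 gene lists in W/F, W/W and F/F mice, on the log2(TPM + 1) scale, with the number of tested members in parentheses. W/W medians lie between -0.22 and 0.46 apart from cholesterol synthesis at -2.15, and F/F medians of the macrophage, matrix and bile duct lists lie between those of W/W and W/F.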

How the data were processed

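Liver polyA RNA of 36 libraries was measured by RNA-seq. The authors deposited 1 table of TPM values per gene and library; per the submitters' processing notes, Trimmomatic 0.36, STAR 2.5.2b and featureCounts of Subread 1.5.2 were used with GRCm38/mm10, and strand and annotation settings are not given in the sources used here. Low TPM values are whole multiples of 1 read, so read totals were recovered (18.1 to 35.8 times 1000000; 93.7% to 95.6% of values within 0.1 read of a whole number).

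Differences were fitted with limma 3.58.1 (R 4.3.3) on log2(TPM + 1) over all 36 libraries, on the 16638 genes that reached 1 TPM in 4 or more libraries, with Benjamini-Hochberg adjustment and a threshold of 0.05; the fit was tested on simulated data. All 8 W/F libraries entered, none imputed. The labels do not say that each library is 1 mouse, so p-values measure the spread between libraries. Alternatives were another pseudocount, other filters, median-of-ratios rescaling over 14786 genes, a replicate block, array weights, a flat variance prior, leaving out each replicate and, chosen after seeing the data, limma-voom on recovered reads of 16599 genes.

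Named genes were, by rule, the 12 largest rises and 12 largest falls without overlap and at 5 TPM or more, in each of 43 lists the largest rise, fall and level, 25 preset members, and the 5 largest differences each way; not all are printed, and 2 are not reported here. Lists and members were chosen with earlier results of these data known. Shared sequence is the share of a gene's 50-base stretches that also occur in transcripts of other genes (GENCODE M21); promoters come from RefSeq (GRCm38.p6). The labels do not say whether replicate numbers pair the W/F libraries, and the main fit used no pairing.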

Additional observations from a re-analysis of the deposited data

Results flagged for a closer look

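Dixon's test was run on 208 groups of 4 libraries, with TPM of each named gene on the log2 scale and 3 library measures unlogged. A library lay far from the other 3 in 16 of them. Chance gives about 1 in 20 for independent groups. These groups share the same libraries, and Saa1 and Orm2 were named after their values were seen. The count therefore cannot be judged against that rate. Chow replicate 4 was the highest for Lcn2 (418 TPM), Cxcl1 (187 TPM), Saa1 (3791 TPM) and Orm2 (1251 TPM) and the lowest for Mup3 (19315 TPM) and Cyp2c54 (214 TPM). Chow replicate 3 was the highest for H2-Aa (21.1 TPM) and Gsta1 (5.82 TPM), and chow replicate 1 the lowest for Idi1 (180.5 TPM). MASH replicate 1 was the highest for Fasn (28.8 TPM) and for depth (34.5 M, where M is 1000000 reads) and the lowest for Cyp2a4 (20.6 TPM), Pparg (20.7 TPM) and Cyp2b9 (0.0407 TPM). MASH replicate 3 was the highest for S100a8 (47.4 TPM) and MASH replicate 4 for Gsta1 (176 TPM).

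The diet response differed between genotypes, by the test of the difference, in 9086 genes for W/F against W/W and 1136 for W/F against F/F. Against W/W, the differences of named genes were 7.72 for Gpnmb, 7.25 for Lcn2, 7.06 for Ly6d, 6.39 for Gstm3, 6.18 for Ubd, 4.83 for Trem2 and 4.47 for Col1a1. Those below 0 were -9.53 for Mup7, -9.03 for Mup15, -8.95 for Mup17, -8.22 for Mup11, -7.55 for Hsd3b5, -5.72 for Mup3, -2.08 for Abcg5, -1.39 for Hmgcs1 and -1.23 for Srebf1. Against F/F they were 6.43 for Cyp2b9, 6.24 for Sprr1a, 5.94 for Scd1, 5.31 for Ly6d, 5.18 for H2-M2, 3.28 for Cd5l and 3.15 for Clec4f. Those below 0 were -6.59 for Mup15, -6.32 for Mup7, -5.68 for Hsd3b5, -5.59 for Mup17, -4.53 for Mup11 and -1.52 for Hmgcs1.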

How the results depend on the processing

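Of the 101 named genes, 87 kept their direction and their side of the threshold under every alternative run, and 22 of 29 differences between genotypes did. The count of genes changed in W/F was 10145 and ran from 7567 with a filter of 5 TPM (of 11103 genes) to 11175 with no filter (of 32923), and from 9556 to 10096 with 1 library left out; on recovered reads it was 9702, and 9373 after rescaling. The W/F minus W/W count ran from 8283 to 9280 with 1 library left out. The W/F minus F/F count of 1136 became 2865 with array quality weights and ran from 703 to 1347 with 1 library left out; the cause was not tested.

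Nr1h3 turned to -0.31 after rescaling and -0.41 on rescaled recovered reads, and Srebf1 to -0.16 and -0.26. Clec4f, at 0.03 as deposited, was -0.46 and -0.57 there, -0.0703 with array weights, -0.0499 on recovered reads, and from -0.17 to 0.28 with 1 library left out, below 0 without chow replicate 1 (-0.14), MASH replicate 1 or MASH replicate 4. None of these Clec4f values passed. The composition differences ran from -7.78 to -6.91 percentage points and from 1849 to 2059 genes with 1 library left out.

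Same-numbered W/F libraries deviated together only weakly (r = 0.05, 0.07, 0.02 and 0.04), and 2 of the 4 chow libraries correlated best with their own number. With 4 libraries a group, these values cannot settle whether the numbers pair them. With the replicate number as a block, 9044 genes passed in W/F, 8773 against W/W and 1168 against F/F, and among named genes Cxcl1 and Per1 missed the threshold and Cyp7a1 passed it. Diet, gavage and cohort cannot be told apart, and depth did not overlap between the groups.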
